A study of Mus musculus with 16 samples.

Results

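The genes examined here make nucleotides and polyamines. Of 36 listed genes, 35 were found among the 34797 gene names on the array, with 56 probes, and the rule used names and no measured value. Amd1 had no probe under its own name and is described through probes it shares with Amd2. The set holds 6 genes of polyamine synthesis and its control, 7 of pyrimidine synthesis and salvage, 10 of purine synthesis, 4 that supply folate-bound carbon units or the ribose donor PRPP, and 8 nucleotide kinases and salvage enzymes. All 35 passed the filter on dim probes in at least 1 comparison and were tested.

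RNA came from splenic B cells of AM14 mice, whose B cell receptor is a rheumatoid factor, that is, a receptor for IgG. The cells lacked both Tlr7 and Tlr9 (Tlr7/9-/-, the double knockout), lacked Tlr9 (Tlr9-/-), lacked Tlr7 (Tlr7-/-) or were WT. Tlr7 and Tlr9 encode endosomal receptors for RNA and DNA. PL2-3, the stimulus, is a monoclonal autoantibody. The cells of every genotype were sampled unstimulated (0 h) and at 6, 24 and 42 h of stimulation, with 1 array for each sample and 16 arrays in all. Every array set the sample (Cy5) against 1 pool of unstimulated AM14 B cell RNA of all 4 genotypes (Cy3), with no dye swap. The sources used here do not give the PL2-3 dose, the age of the mice or whether a sample pooled several of them.

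Dividing lymphocytes need purine and pyrimidine nucleotides for RNA and DNA, and they build them either from small precursors (de novo synthesis) or by phosphorylating nucleosides and bases taken up from outside (salvage). Polyamines are small cations made from ornithine that bind nucleic acids and are needed for growth. Ornithine decarboxylase, the product of Odc1, sets their rate of synthesis. It is held in check by antizyme, while the acetyltransferase Sat1 starts their breakdown.

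There were no replicate arrays. In the responses to PL2-3, the Tlr9-/-, Tlr7-/- and WT cells stood in for replicates, so a limma p-value below sets a change against how far these 3 genotypes disagreed. Cultures kept without the antibody were not measured, and its effect and that of culture itself cannot be told apart. The double knockout and Tlr9-/- arrays lay on 1 slide and scan, and the Tlr7-/- and WT arrays on the other. Slide and the presence of Tlr9 therefore cannot be told apart. Because the RNA was bulk, more cells of a type and more RNA per cell cannot be told apart either.

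Between 37.4% and 62.7% of the spots on an array stood well above background in Cy5. The lowest was the Tlr9-/- 0 h array. The brightest Tlr7 probe ranged between -0.73 and 0.41 on the 8 arrays of cells without Tlr7 and between 0.32 and 1.71 on the 8 with it, as log2 of Cy5 over Cy3 (the log2 ratio). These ranges overlapped, but they pool times and slides. At 0, 6, 24 and 42 h the brightest probe read 0.95, 1.48, 0.9 and 0.91 in WT cells. On the same slide it read -0.73, -0.02, -0.2 and -0.41 in Tlr7-/- cells. On the other slide it read 0.32, 1.07, 1.64 and 1.71 in Tlr9-/- cells and -0.58, 0.12, 0.36 and 0.41 in the double knockout. Another Tlr7 probe ranged between -1.23 and 0.6 without Tlr7 and between -0.05 and 1.87 with it. Both probes were higher with Tlr7 at each time on each slide. The dimmest Tlr7 probe, above background on 4 arrays, ranged between 0.06 and 0.5 without it and between -0.03 and 0.17 with it. The Tlr9 probe ranged between -1.14 and 0.04 without Tlr9 and between -0.84 and -0.03 with it, so it did not separate the genotypes. The position of these probes relative to the deleted part was not checked. All 8 B cell markers examined were well above background on every array. Their mean log2 ratio lay between -2.89 and -1.67 with PL2-3 and between -0.04 and 0.17 at 0 h. Myeloid markers (9 genes) averaged between -2.49 and -1.47 with PL2-3 and between -0.42 and 0.1 at 0 h. Erythroid markers (6 genes) averaged between -2.75 and -1.06 with PL2-3 and between -0.73 and 0.53 at 0 h. Markers of NK and plasmacytoid dendritic cells (7 genes) averaged between -1.81 and -1.07 with PL2-3 and between -0.31 and 0.08 at 0 h. Of 8 T cell markers, 5 were called lower and 1 (Lck, 1.58) higher at 6 h than at 0 h, with a median change of -0.5. The part of these cells in the results below was not tested.

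Most of the genes stood far above the unstimulated pool by 6 h. Over the 3 genotypes that keep a receptor (Tlr9-/-, Tlr7-/- and WT), 25 of 35 were higher and 4 lower at 6 h than at 0 h, where 46.9% of all 22509 genes tested were called (22.9% higher and 23.9% lower; limma, Benjamini-Hochberg adjusted p under 0.05). The median change of the 35 was 1.54 log2 units, against -0.003 over all genes. At 24 h, 25 were higher and 5 lower, with a median of 1.41, where 48.7% of all genes were called (22.7% higher and 26% lower). At 42 h, 23 were higher and 5 lower, with a median of 0.98, where 38% were called (17.3% higher and 20.7% lower). All 10 purine genes were higher at all 3 times.

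The share of higher calls depended on how each array was centred. With the median of each array set to 0 in place of loess, 75.7% of all called genes were higher at 6 h (48.9% with loess), 77% at 24 h (46.6%) and 58.5% at 42 h (45.5%). The median change over all genes then stood at 0.23, 0.23 and 0.08 log2 units. Of the 35 members, 28, 30 and 21 were called higher under that centring and 2, 1 and 2 lower. The shares of all genes tested that were called under it are not given here, so these counts cannot be set against them. With the processed signals of the scanner software, 32.6% of all called genes were higher at 42 h.

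**Figure D1:**
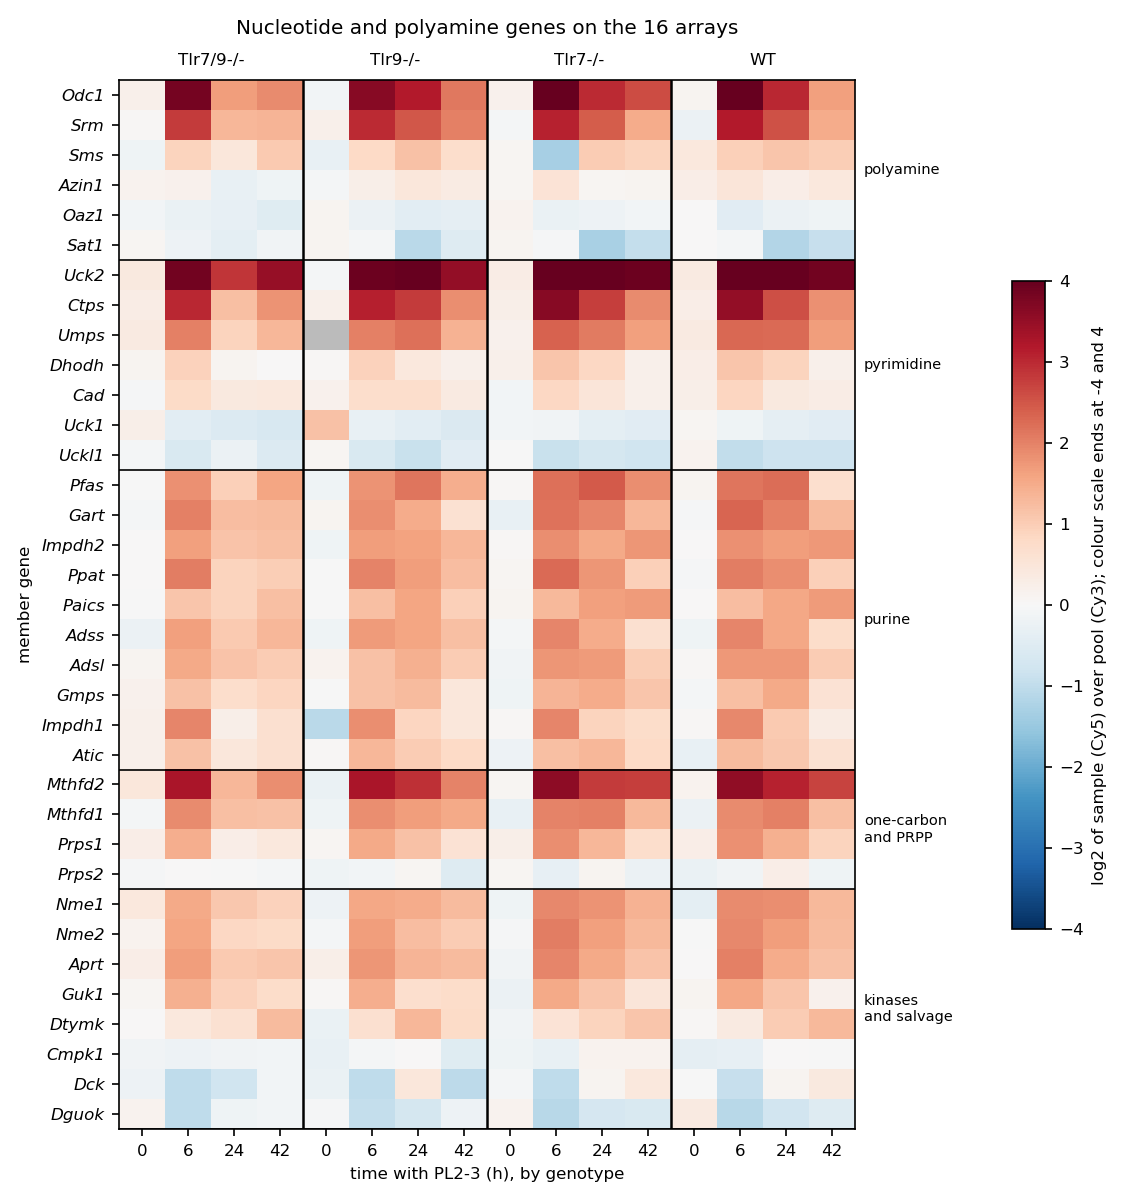
Heat map of the log2 ratio of sample (Cy5) over pool (Cy3) for the 35 genes (rows, by role) on the 16 arrays (columns: genotype, then time with PL2-3 in h). Grey marks the missing Umps spot of the Tlr9-/- 0 h array. Odc1, Uck2, Ctps, Srm and Mthfd2 have the largest fitted changes at 6 h, between 3.12 and 4.13, and the double knockout column at 24 h is paler than the other 24 h columns.

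Of the 6 polyamine genes, Odc1 and Srm rose at all 3 times, Sat1 fell at 24 and 42 h, and Oaz1 was called lower with loess. Odc1, which turns ornithine into putrescine, had log2 ratios at 0, 6, 24 and 42 h of 0.21, 3.82, 1.68 and 1.9 in the double knockout and of -0.12, 3.64, 3.17 and 2.1 in Tlr9-/- cells. They were 0.16, 4.31, 2.97 and 2.61 in Tlr7-/- cells and 0.11, 4.21, 3.01 and 1.63 in WT cells. Every stimulated array lay above every 0 h array. The fitted change over the 3 genotypes with a receptor was 4.01 ± 0.22 log2 units at 6 h (SE, limma adjusted p = 8.61e-07), 3.0 at 24 h and 2.06 at 42 h. Its 4 probes gave between 3.3 and 4.01 at 6 h. Srm, spermidine synthase, stood at 0.04, 2.79, 1.34 and 1.37 in the double knockout and at 0.2, 2.97, 2.48 and 2.03 in Tlr9-/- cells over the same times. It stood at -0.07, 3.09, 2.42 and 1.47 in Tlr7-/- cells and at -0.25, 3.18, 2.54 and 1.49 in WT cells. No stimulated array overlapped a 0 h array, and the fitted changes were 3.12 ± 0.15 at 6 h (adjusted p = 5.03e-07, limma), 2.52 at 24 h and 1.71 at 42 h.

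The sequences below are array probes of this branch, 60 bases each, with mm9 coordinates from the array design. They are shown because they carry its measurements: a second Odc1 probe (3.3, 2.63 and 2.02 log2 units at 6, 24 and 42 h), a second Srm probe (2.67, 2.27 and 1.73), and a probe that lists transcripts of both Amd1 and Amd2 as targets. Letters are in lower case throughout, since no part of them is singled out.
Odc1, chr12:17554799-17554858, plus strand: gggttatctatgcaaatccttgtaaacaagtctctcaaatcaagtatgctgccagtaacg
Srm, chr4:147968254-147968313, plus strand: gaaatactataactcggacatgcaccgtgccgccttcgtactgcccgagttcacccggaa
Amd1 and Amd2, chr10:40009136-40009195, minus strand: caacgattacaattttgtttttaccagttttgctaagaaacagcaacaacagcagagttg

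Amd1 encodes S-adenosylmethionine decarboxylase, which supplies the propylamine groups added to putrescine and spermidine. The shared probe printed above gave fitted changes of 1.91, 1.49 and 0.8 at 6, 24 and 42 h, and the other shared probe gave 1.94, 1.62 and 0.49. Neither gene's own level can be read from them. On the printed probe, the 24 h log2 ratio was 0.65 in the double knockout, against 1.4 in Tlr9-/- cells, 1.53 in Tlr7-/- cells and 1.96 in WT cells. Sms, spermine synthase, did not pass the test on its brightest probe, whose Tlr7-/- 6 h spot read -1.34 while the 3 other 6 h arrays read between 0.81 and 0.94. The other Sms probes gave 1.05 and 1.13 at 6 h and 1.19 and 1.37 at 24 h. With the mean over the 3 probes, the change was 0.75 ± 0.2 at 6 h (adjusted p = 0.0112, limma) and 1.19 ± 0.2 at 24 h (adjusted p = 0.000835).

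Sat1, which acetylates spermidine and spermine for export or breakdown, fell at the later times. Its log2 ratios at 0, 6, 24 and 42 h were 0.07, -0.19, -0.4 and -0.13 in the double knockout and 0.1, -0.08, -1.08 and -0.53 in Tlr9-/- cells. They were 0.11, -0.04, -1.3 and -0.95 in Tlr7-/- cells and 0.0, -0.09, -1.17 and -0.92 in WT cells. All stimulated arrays lay below all 0 h arrays, and at 24 and 42 h the double knockout array was the highest. The fitted change was -1.25 ± 0.11 at 24 h (adjusted p = 1.42e-05, limma) and -0.87 ± 0.11 at 42 h. At 6 h it was -0.14 and not called, and it turned to 0.59 under median centring. Oaz1, the antizyme that binds ornithine decarboxylase and sends it to the proteasome, stood at -0.11, -0.27, -0.32 and -0.5 in the double knockout and at 0.1, -0.25, -0.41 and -0.37 in Tlr9-/- cells. In Tlr7-/- cells it stood at 0.15, -0.27, -0.2 and -0.11, and in WT cells at 0.0, -0.45, -0.23 and -0.18. The fitted falls of -0.4, -0.36 and -0.3 at 6, 24 and 42 h were called with loess and turned to 0.52, 1.02 and 0.4 under median centring. Its calls were also lost with the processed signals of the scanner software and without the WT or the Tlr7-/- arrays. Its 0 h and stimulated arrays met at -0.11. Azin1, which releases ornithine decarboxylase from antizyme, was not called at any time on its brightest probe, with fitted changes between 0.17 and 0.33. Another Azin1 probe, above background on all 16 arrays, gave 1.12 at 6 h and 0.81 at 24 h. With the mean over its probes, Azin1 was called higher at 6 h (0.61, adjusted p = 0.000242, limma) and at 24 h (0.41, adjusted p = 0.00317), and under median centring it was 1.04 and 0.93, both called.

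In the pyrimidine group, a salvage kinase changed most. Uck2, which phosphorylates uridine and cytidine, had log2 ratios at 0, 6, 24 and 42 h of 0.4, 3.86, 2.86 and 3.49 in the double knockout and of -0.07, 3.93, 4.35 and 3.53 in Tlr9-/- cells. They were 0.29, 4.59, 4.66 and 3.91 in Tlr7-/- cells and 0.35, 4.42, 4.66 and 3.87 in WT cells. All 12 stimulated arrays lay above all 4 unstimulated ones. Fitted changes were 4.13 ± 0.09 at 6 h, 4.37 ± 0.09 at 24 h (adjusted p = 4.04e-08, limma) and 3.58 ± 0.09 at 42 h, the largest of the 35 genes at each time. Ctps, CTP synthase, which turns UTP into CTP, stood at 0.31, 3.03, 1.21 and 1.8 in the double knockout and at 0.21, 3.11, 2.79 and 1.85 in Tlr9-/- cells. It stood at 0.23, 3.65, 2.76 and 1.9 in Tlr7-/- cells and at 0.27, 3.52, 2.58 and 1.83 in WT cells. It rose by 3.19 ± 0.13 at 6 h (adjusted p = 2.16e-07, limma), 2.48 at 24 h and 1.62 at 42 h, and its 24 h array was below its 6 h array in every genotype.

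The relatives of Uck2 were lower with loess. Uckl1, a uridine kinase-like gene, stood at -0.08, -0.62, -0.25 and -0.55 in the double knockout and at 0.09, -0.6, -0.89 and -0.46 in Tlr9-/- cells. It stood at -0.01, -0.9, -0.7 and -0.79 in Tlr7-/- cells and at 0.15, -1.0, -0.83 and -0.82 in WT cells. All stimulated arrays lay below all 0 h arrays. Fitted changes were -0.91, -0.88 and -0.76 at 6, 24 and 42 h, all called, and -0.38 and -0.34 at 6 and 24 h under median centring, which were not. Uck1, the other uridine-cytidine kinase, stood at 0.23, -0.42, -0.55 and -0.65 in the double knockout and at 1.18, -0.31, -0.43 and -0.58 in Tlr9-/- cells. It stood at -0.11, -0.15, -0.39 and -0.45 in Tlr7-/- cells and at 0.07, -0.17, -0.35 and -0.45 in WT cells. The Tlr9-/- 0 h spot stood apart from the other 0 h spots, and the stimulated arrays were below all of them. The fitted change at 24 h was -0.77 ± 0.26 (adjusted p = 0.0338, limma) with that array and -0.34 ± 0.09 (adjusted p = 0.0162) without it. Under median centring it was 0.23, so the direction depends on the scaling, and it was not called without the WT or the Tlr7-/- arrays (-0.95 and -1.02).

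Of the de novo pyrimidine enzymes, Umps, which completes UMP, rose by 2.03 ± 0.12 at 6 h (adjusted p = 3.5e-06, limma), 1.99 at 24 h and 1.37 at 42 h. Its Tlr9-/- 0 h spot was marked as an outlier and left out of the fit. Dhodh, the mitochondrial dehydrogenase of the pathway, rose by 0.88 at 6 h and 0.54 at 24 h, and its 42 h value of 0.04 was not called. Cad, which carries out the opening steps, rose by 0.7 at 6 h and 0.42 at 24 h. The 24 h call was lost without the Tlr7-/- arrays (0.35, adjusted p = 0.132, limma) and from the processed signals (adjusted p = 0.0515), which gave 2.11 at 6 h. The Cad probe was dim, above background at 0 h on 1 of the 3 arrays with a receptor, so its change is measured from a level near background.

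All 10 genes of purine synthesis rose at each time, with fitted changes between 1.21 and 2.24 at 6 h, 1.25 and 2.27 at 24 h, and 0.8 and 1.64 at 42 h. Their median changes of 1.91, 1.61 and 1.02 compare with 1.54, 1.41 and 0.98 over all 35. The steps to IMP were covered by Ppat, the committing enzyme (2.09, 1.76 and 1.04 at 6, 24 and 42 h), Gart (2.21, 1.89 and 1.15), Pfas, Paics (1.21, 1.55 and 1.41), Adsl (1.54, 1.6 and 0.98) and Atic (1.42, 1.29 and 0.88). Adss, on the branch to AMP, changed by 2.0, 1.67 and 1.0, and Gmps, on the branch to GMP, by 1.33, 1.5 and 0.8. Other probes disagreed in size for Gmps (0.69, 0.11 and -0.13, and 0.23, 0.24 and 0.03) and for Ppat (2.43, 2.74 and 1.75).

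Pfas, which makes formylglycinamidine ribonucleotide, stood at 0, 6, 24 and 42 h at -0.03, 1.82, 0.95 and 1.58 in the double knockout and at -0.16, 1.8, 2.15 and 1.44 in Tlr9-/- cells. It stood at 0.04, 2.21, 2.44 and 1.87 in Tlr7-/- cells and at 0.12, 2.13, 2.22 and 0.66 in WT cells. The WT 42 h array was low beside the other 42 h arrays, and stimulated and 0 h arrays did not overlap. Impdh1, an IMP dehydrogenase on the way to GMP, stood at 0.19, 1.94, 0.23 and 0.63 in the double knockout and at -1.08, 1.87, 0.86 and 0.45 in Tlr9-/- cells. It stood at 0.05, 1.95, 0.88 and 0.72 in Tlr7-/- cells and at 0.05, 1.92, 1.04 and 0.32 in WT cells. Its Tlr9-/- 0 h spot was low. The fitted changes of 2.24, 1.25 and 0.82 at 6, 24 and 42 h were 1.89, 0.9 and 0.47 without that array, all still called. The 42 h call was lost without the Tlr7-/- arrays (adjusted p = 0.0945, limma). Its paralog Impdh2 changed by 1.82, 1.63 and 1.64, and its 42 h change was the largest of the 10.

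Promoters are shown because these genes rose together and because CACGTG, the letters of the E-box bound by MYC and related factors, lies in some of them. RefSeq promoter windows (GRCm38.p6, 250 bases before the start to 50 after) were found for 32 of the 36 listed genes. CACGTG, which reads the same on both strands, lay in the window of 6 of them (Atic, Dtymk, Impdh2, Nme1, Paics and Sms), or in 7 of their 40 promoters (17.5%), against 7.15% of all 32851 promoters. TGATGNAA, the letters of an ATF4-type element searched on both strands, lay only in that of Prps1, 2.5% of the 40 promoters against 3.97% of all. The 250 bases before the start follow for 4 genes, with CACGTG in capitals.
Nme1, chr11:93968273-93968522, minus strand: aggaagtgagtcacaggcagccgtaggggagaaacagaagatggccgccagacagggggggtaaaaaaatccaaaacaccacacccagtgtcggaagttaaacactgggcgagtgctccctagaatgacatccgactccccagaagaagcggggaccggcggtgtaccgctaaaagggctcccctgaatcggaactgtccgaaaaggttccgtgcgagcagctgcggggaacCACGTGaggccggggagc
Impdh2, chr9:108560186-108560435, plus strand: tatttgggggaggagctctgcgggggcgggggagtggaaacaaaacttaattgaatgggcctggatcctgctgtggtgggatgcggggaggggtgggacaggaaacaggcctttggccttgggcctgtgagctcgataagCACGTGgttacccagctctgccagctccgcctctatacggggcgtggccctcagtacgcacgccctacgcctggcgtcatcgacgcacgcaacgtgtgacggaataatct
Paics, chr5:76951052-76951301, plus strand: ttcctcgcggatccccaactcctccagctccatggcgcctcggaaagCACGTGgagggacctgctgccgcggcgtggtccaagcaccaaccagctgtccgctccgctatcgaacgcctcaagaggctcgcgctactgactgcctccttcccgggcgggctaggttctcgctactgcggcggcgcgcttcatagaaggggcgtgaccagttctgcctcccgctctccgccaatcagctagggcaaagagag
Atic, chr1:71556906-71557155, plus strand: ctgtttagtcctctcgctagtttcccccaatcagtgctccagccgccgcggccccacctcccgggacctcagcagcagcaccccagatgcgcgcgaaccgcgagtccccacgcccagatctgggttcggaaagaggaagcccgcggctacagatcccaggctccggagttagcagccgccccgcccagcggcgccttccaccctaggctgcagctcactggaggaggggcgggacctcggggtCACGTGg

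Counted back from the start, with the base before the start as -1, CACGTG begins at -18 in Nme1, -110 in Impdh2, -203 in Paics and -7 in Atic. Nme1 has another RefSeq promoter, with the letters at -29. The most changed genes with a window, Uck2, Odc1, Mthfd2 and Ctps, did not hold these letters in it, which says nothing about sequence elsewhere. Binding was not measured.

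Both folate enzymes rose, and so did Prps1 of the PRPP synthetases. Mthfd2, a mitochondrial folate enzyme that feeds carbon units to purine and thymidylate synthesis, stood at 0, 6, 24 and 42 h at 0.45, 3.28, 1.33 and 1.85 in the double knockout and at -0.26, 3.26, 2.93 and 1.98 in Tlr9-/- cells. It stood at 0.08, 3.58, 2.79 and 2.77 in Tlr7-/- cells and at 0.14, 3.56, 3.07 and 2.71 in WT cells. All stimulated arrays were above all 0 h arrays. The fitted changes were 3.48 ± 0.15 (adjusted p = 2.91e-07, limma), 2.94 and 2.5. Mthfd1, its cytosolic relative, stood at -0.09, 1.89, 1.2 and 1.17 in the double knockout and at -0.16, 1.85, 1.66 and 1.52 in Tlr9-/- cells. It stood at -0.31, 1.97, 2.03 and 1.31 in Tlr7-/- cells and at -0.23, 1.88, 2.02 and 1.21 in WT cells. Stimulated and 0 h arrays did not overlap, and its fitted changes were 2.14, 2.14 and 1.58.

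Prps1, which makes PRPP, the ribose phosphate donor of both nucleotide pathways, stood at 0.26, 1.45, 0.25 and 0.43 in the double knockout and at 0.09, 1.53, 1.18 and 0.57 in Tlr9-/- cells. It stood at 0.22, 1.85, 1.33 and 0.71 in Tlr7-/- cells and at 0.28, 1.84, 1.42 and 0.88 in WT cells. At 24 h the double knockout array was back among the 0 h values, which ran up to 0.28, and the others were not. Fitted changes were 1.54 ± 0.08 at 6 h (adjusted p = 7.2e-07, limma), 1.11 at 24 h and 0.52 at 42 h. Its paralog Prps2 was not called at any time, with fitted changes of -0.08, 0.26 and -0.19.

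The kinases and salvage enzymes were mixed. Nme1, a nucleoside diphosphate kinase that makes nucleoside triphosphates, stood at 0, 6, 24 and 42 h at 0.42, 1.53, 1.09 and 0.92 in the double knockout and at -0.2, 1.56, 1.48 and 1.25 in Tlr9-/- cells. It stood at -0.18, 1.92, 1.79 and 1.38 in Tlr7-/- cells and at -0.39, 1.9, 1.86 and 1.3 in WT cells. Its paralog Nme2 stood at 0.15, 1.59, 0.83 and 0.76 in the double knockout and at -0.07, 1.68, 1.23 and 1.03 in Tlr9-/- cells. It stood at -0.05, 2.06, 1.64 and 1.29 in Tlr7-/- cells and at -0.01, 1.91, 1.66 and 1.26 in WT cells. For both, every stimulated array lay above every 0 h array, and the double knockout array was the lowest at each of the 3 later times. The fitted changes were 2.05, 1.97 and 1.57 for Nme1 and 1.93, 1.55 and 1.24 for Nme2, and cross-hybridisation between these closely related genes was not tested. Other Nme1 probes gave 1.67, 1.55 and 0.78, and 1.15, 0.61 and 0.26. Aprt, which salvages adenine, rose by 1.88, 1.41 and 1.15, and Guk1, guanylate kinase, by 1.53, 0.99 and 0.49. Dtymk, thymidylate kinase, rose by 0.65 at 6 h, 1.2 at 24 h and 1.19 at 42 h, and its other probe, also above background on all 16 arrays, gave 1.49, 2.48 and 1.92. Cmpk1, a kinase of CMP and UMP, was not called at any time, with fitted changes between 0.04 and 0.35.

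Of the deoxynucleoside kinases, Dguok was lower at all 3 times and Dck at 6 h. Dguok, the mitochondrial deoxyguanosine kinase, stood at 0.15, -1.02, -0.16 and -0.12 in the double knockout and at -0.04, -0.96, -0.69 and -0.19 in Tlr9-/- cells. It stood at 0.15, -1.12, -0.66 and -0.6 in Tlr7-/- cells and at 0.37, -1.11, -0.78 and -0.53 in WT cells. All stimulated arrays lay below all 0 h arrays. The fitted change was -1.22 ± 0.14 at 6 h (adjusted p = 6.09e-05, limma), -0.87 at 24 h and -0.6 at 42 h, and the last lost its call without the WT arrays or without the Tlr7-/- arrays (-0.45 and -0.53). Under median centring the changes were -0.07 at 24 h and -0.34 at 42 h, not called. Dck, the cytosolic deoxycytidine kinase, was not well above background at 6 h on any of the 3 arrays with a receptor, while 2 of 3 were at 0 h. From these dim spots its mean Cy5 level was 1.75-fold lower, a value for 1 colour of uncertain size that is open to dye bias. In the log2 ratio Dck was called lower at 6 h (adjusted p = 0.042, limma). That call was lost without the WT arrays (adjusted p = 0.177, limma), the Tlr7-/- arrays (0.171) or the Tlr9-/- 0 h array (0.116), and from the processed signals the value was -3.35 in place of -0.86. At 24 and 42 h its changes of 0.35 and 0.05 were not called.

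**Figure D2:**
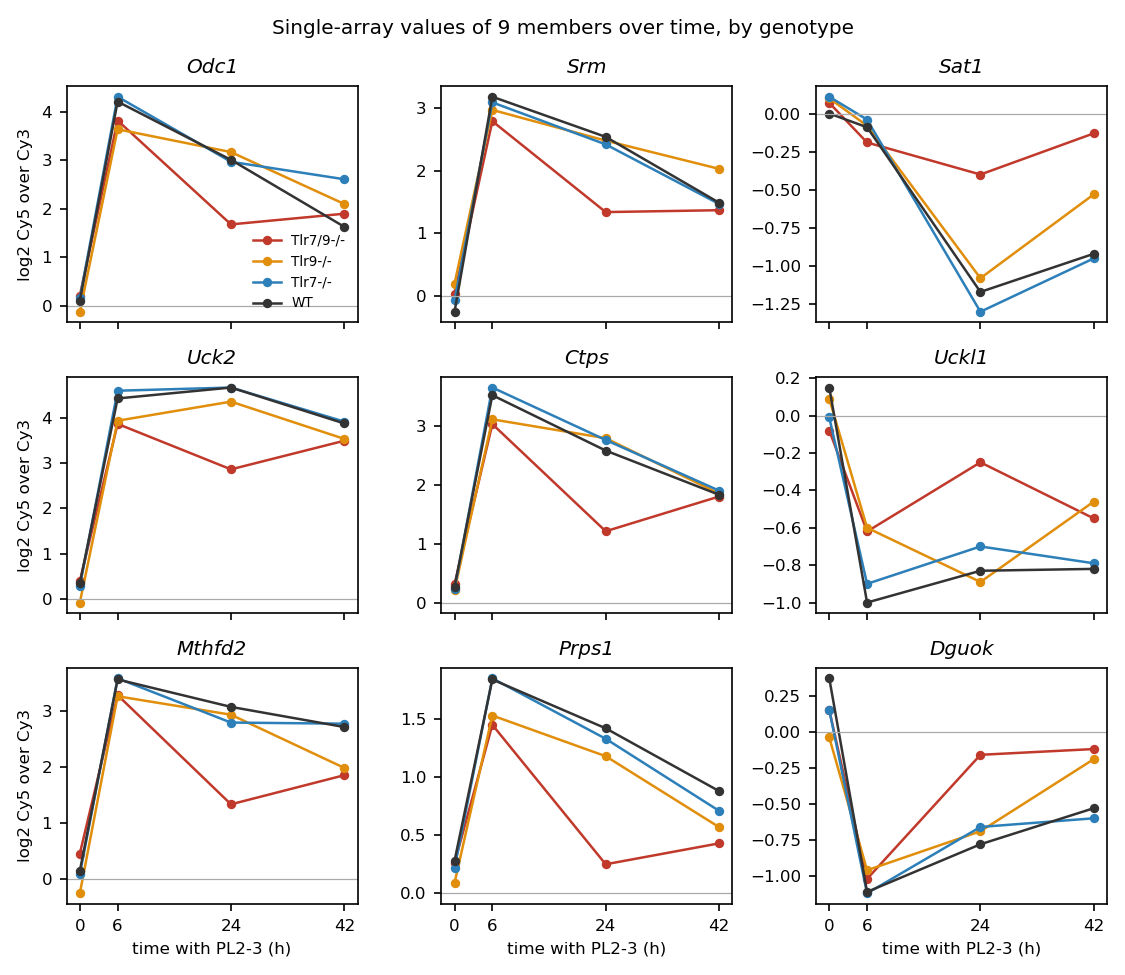
Log2 ratio (Cy5 over Cy3) against time with PL2-3 (h) for 9 genes, 1 array per point and 1 line per genotype. At 24 h the double knockout line lies below the others for Odc1, Srm, Uck2, Ctps, Mthfd2 and Prps1, and above them for Sat1, Uckl1 and Dguok.

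The time courses within the 3 genotypes with a receptor were compared next. Between 6 and 24 h, 2 of 35 genes rose and 12 fell, where 32.2% of all genes were called (14.2% higher and 18% lower). The falls included Sat1 (-1.11), Odc1 (-1.01 ± 0.22, adjusted p = 0.00692, limma), Impdh1 (-0.99), Ctps (-0.72) and Srm (-0.6), and the calls for a rise were Dtymk (0.55) and Dck. The Dck probe was not well above background at 6 h on these arrays, so no size is given for it. Between 24 and 42 h none rose and 14 fell, where 5.7% of all genes were called (2.11% higher and 3.59% lower). Uck2 fell by 0.79 on the log2 scale (adjusted p = 0.00926, limma), Ctps by 0.85, Srm by 0.81, Ppat by 0.72 and Prps1 by 0.59. These counts rest on few arrays: without the WT arrays or without the Tlr7-/- arrays, 1 gene was called between 6 and 24 h and none between 24 and 42 h, where no gene of any kind was called. From the processed signals 5 and 0 were called. Under median centring 6 and 28 were, and the share of higher among all genes called between 24 and 42 h was 0.936%, against 37.1% with loess. The shares of all genes called with the processed signals and under median centring are not given here.

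Markers of dividing cells (11 genes) were mixed at 6 h and high later. At 6 h 4 of 11 were called higher (Mcm6 1.66, Pcna 1.48, Mcm2 0.86 and Mcm3 0.76), Mki67 (-1.64) and Ccna2 (-0.88) were not called, and the median change was 0.09. At 24 and 42 h all 11 were called higher. The mean log2 ratio of the 11 at 6 h lay between 0.21 and 0.3 on all 4 arrays. At 24 h it was 1.15 in the double knockout, against 3.34 in Tlr9-/- cells, 2.47 in Tlr7-/- cells and 2.59 in WT cells. At 42 h it was 2.68 in the double knockout, 1.51 in Tlr9-/- cells, 3.39 in Tlr7-/- cells and 3.33 in WT cells.

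The next question was whether cells that lack both receptors responded differently. At 24 h 3 of the 35 genes responded less in the double knockout. Uck2 had changed by 2.46 log2 units from its own 0 h array in the double knockout, against 4.42 in Tlr9-/- cells, 4.37 in Tlr7-/- cells and 4.32 in WT cells. Mthfd2 had changed by 0.87 in the double knockout, against 3.2, 2.71 and 2.93 in Tlr9-/-, Tlr7-/- and WT cells. Prps1 had changed by -0.01 in the double knockout, against 1.09, 1.11 and 1.14 in the same 3. In none of these genes did the double knockout overlap the others at 24 h.

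The response difference (double knockout less the mean of the other 3 genotypes) was -1.91 ± 0.18 for Uck2 (SE, limma adjusted p = 0.00716), -2.07 ± 0.3 for Mthfd2 (adjusted p = 0.0408) and -1.12 ± 0.16 for Prps1 (adjusted p = 0.0408). These 3 of 35 were called, all lower, where 0.149% of 23526 genes were (0.0638% higher and 0.085% lower). Over the 35 genes, 30 differences were negative, where 50.9% of all genes had a negative difference. Their median was -0.63, against -0.008 over all genes, which hold genes that rose and genes that fell. Among all genes called higher at 24 h, a choice that itself favours lower values in the double knockout, 74.4% changed least there on single arrays. Over all probes, the SD of the log2 ratio at 24 h was 0.447 in the double knockout and between 0.629 and 0.648 in the others. A smaller response at 24 h was therefore not particular to this set. An unadjusted p under 0.05 was found for 21 of the 35, where 15.6% of all genes had one. Ctps (-1.58, adjusted p = 0.061), Odc1 (-1.52, adjusted p = 0.148), Umps (-1.45, adjusted p = 0.064) and Nme1 (-1.3, adjusted p = 0.0687) did not pass. All 10 purine differences were negative, between -1.29 and -0.38, and none was called. Sat1 (0.78), Uckl1 (0.72) and Dguok (0.56), which were lower with PL2-3 in the other genotypes, had positive differences that were not called.

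**Figure D3:**
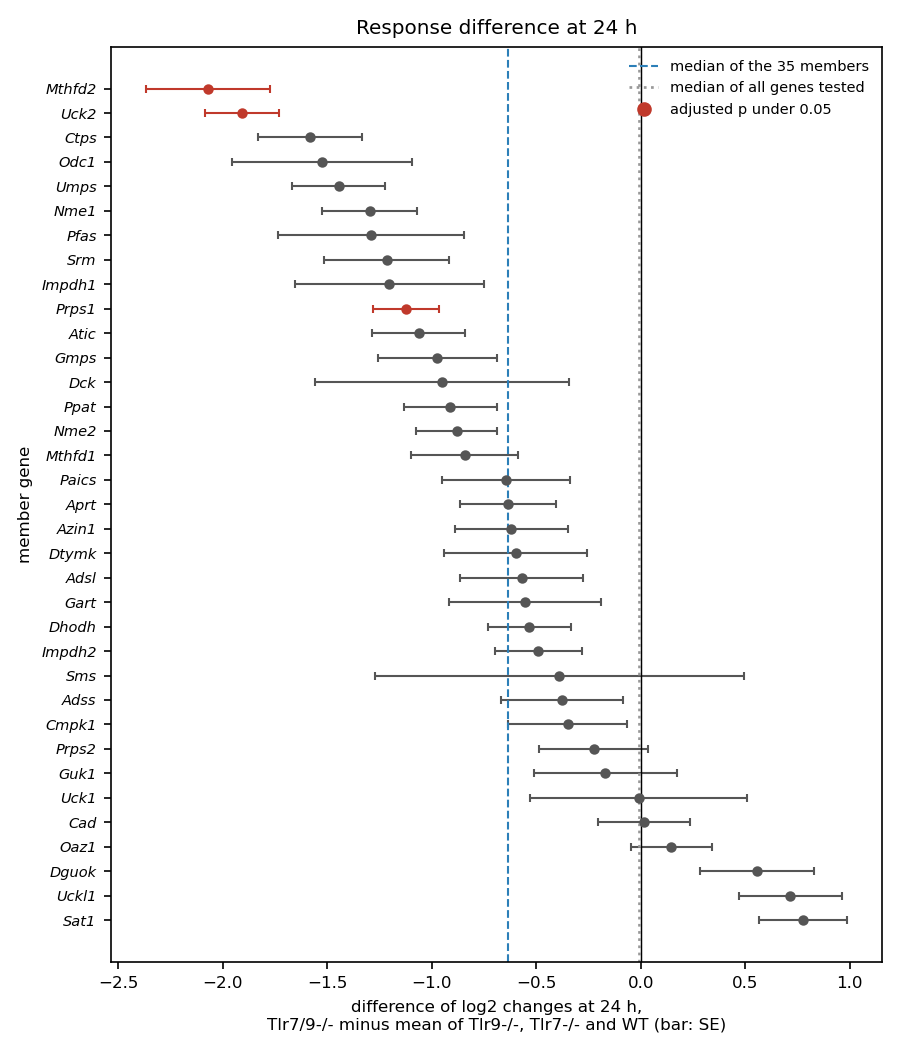
Difference of log2 changes at 24 h, Tlr7/9-/- minus the mean of Tlr9-/-, Tlr7-/- and WT, for each of the 35 genes (point) with its SE from limma (bar). Red marks the 3 genes with an adjusted p under 0.05, the dashed line the median of the 35 genes (-0.63) and the dotted line that of all genes tested (-0.008). All genes tested hold genes that rose and genes that fell, whereas most of the 35 rose.

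The number of calls turned on which genotypes were kept. With the Tlr9-/- arrays left out, the double knockout was set only against cells on the other slide, all of which keep Tlr9. Slide, loss of Tlr9 and loss of both receptors cannot be told apart in that fit. Without the WT arrays, or without the Tlr7-/- arrays, none of the 35 was called at 24 h and no gene on the array was. Without the Tlr9-/- arrays, 21 of 35 were called, 19 lower and 2 higher (Sat1 and Uckl1), where 13.8% of all genes were called, and the differences of Uck2, Mthfd2 and Prps1 were -1.88, -1.94 and -1.14. Without only the Tlr9-/- 0 h array, 5 were called, and the share of all genes called in that fit is not given here. From the processed signals none was called, and under median centring 1 was, with a median difference over all genes of -0.2 and over the 35 of -1.26. The markers of dividing cells had a median response difference of -1.64 at 24 h, with none of 11 called, and those of B cells one of 1.42, with none of 8 called. Erythroid markers had one of 1.12 and myeloid markers one of 0.79, with none called of 6 and of 9, and the medians of the NK and plasmacytoid dendritic, plasma cell and T cell markers were 0.37, 0.37 and 0.25. Their part in the result was not tested.

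At 6 h none of the 35 differed in response between the double knockout and the other genotypes by limma, with 3 at an unadjusted p under 0.05 (Nme1, Nme2 and Uck2) and a median difference of -0.18, where 0.0298% of all genes were called (0.017% higher and 0.0128% lower) and 3.74% had such a p. At 42 h none differed either, with 5 at an unadjusted p under 0.05 and a median difference of -0.11, where 0.034% of all genes were called (0.0213% higher and 0.0128% lower) and 6.16% had such a p. Without the Tlr9-/- arrays, 1 was called at 6 h and 5 at 42 h. The shares of all genes called in those fits are not given here, and at 24 h that share rose when these arrays were left out. Mthfd2 had the largest difference at 42 h, -1.1 ± 0.3 (adjusted p = 0.568, limma).

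Counts were also taken on single arrays. In the double knockout, 21, 8 and 13 of 35 genes stood at least 2-fold above their own 0 h array at 6, 24 and 42 h, where 8.3%, 3.79% and 6.32% of all genes did. In Tlr9-/- cells, 22, 21 and 15 of 34 did, where 10.2%, 10.4% and 7.04% of all genes did. In Tlr7-/- cells it was 22, 22 and 17 of 35 (9.69%, 9.13% and 7.39% of all genes), and in WT cells 22, 20 and 14 of 35 (9.44%, 9.14% and 6.61%). The median change at 24 h was 0.64 in the double knockout, 1.3 in Tlr9-/- cells, 1.52 in Tlr7-/- cells and 1.48 in WT cells.

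**Figure D4:**
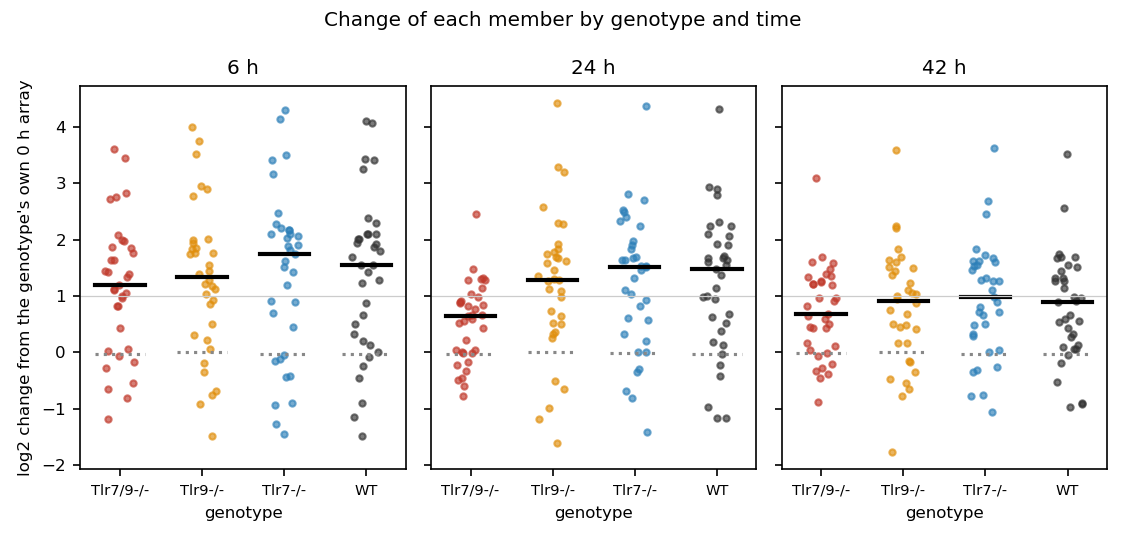
Log2 change of each gene (point) from the 0 h array of its own genotype, by genotype and time. Black bars mark the median of the set and dotted bars that of all genes, which lies between -0.02 and 0.01. The black bar of the double knockout at 24 h, at 0.64, is the lowest of the 12.

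The order of the genotypes was counted over the members called higher at 24 h, a choice made on the other 3 genotypes that itself favours lower values in the double knockout. Of 24 such members with all values, 22 (all but Cad and Guk1) had changed less at 24 h in the double knockout than in each other genotype, where 74.4% of all genes called higher had. It was 18 of 24 at 6 h (40.3% of all) and 12 of 24 at 42 h (32%). On 1 slide, against Tlr9-/- cells alone, the change in the double knockout was smaller in 23 of 24 members at 24 h (81.5% of all), in 19 at 6 h (60.1%) and in 16 at 42 h (52.4%). These counts come from single arrays and have no test.

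Loss of Tlr9 alone was compared with Tlr7-/- and WT cells, each set against its own 0 h array. At 6 h, 1 of 34 testable genes had a larger and 2 a smaller response in Tlr9-/- cells, where 5.89% of all genes were called (4.49% higher and 1.4% lower). At 24 h it was 1 and 2, where 5.85% of all genes were called (4.46% higher and 1.39% lower). At 42 h it was 2 and 4, where 15.8% were called (8.62% higher and 7.14% lower). Under median centring the share of higher among all genes called was 26.2%, 8.78% and 25.7% at 6, 24 and 42 h, against 76.2%, 76.3% and 54.7% with loess, and none of the 34 was called higher. With the processed signals it was 20.3% at 42 h. Median differences were -0.16, -0.02 and -0.04. Impdh1 and Uck1, which account for calls at every time, are the genes whose Tlr9-/- 0 h spot stood apart. Gart, an enzyme of the purine pathway, differed by -0.79 ± 0.18 at 24 h (adjusted p = 0.0442, limma) and by -0.98 ± 0.18 at 42 h (adjusted p = 0.0101). Its 42 h log2 ratio was 0.61 in Tlr9-/- cells, against 1.33 in Tlr7-/- cells and 1.26 in WT cells. Another Gart probe read -0.68 in Tlr9-/- cells at 0 h, against 0.07 in Tlr7-/- cells and 0.09 in WT cells. It read 2.11, 2.13 and 2.15 in these genotypes at 24 h, and 1.28, 1.46 and 1.51 at 42 h. Taken from its own 0 h values, that probe responded more in Tlr9-/- cells at both times, the opposite direction to the call. At 42 h, markers of dividing cells responded less in Tlr9-/- cells, with 10 of 11 called lower and a median difference of -1.96. At 24 h these markers went the other way, with 6 of 11 called higher, 0 lower and a median difference of 1.07. Their part in the result was not tested.

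Levels over the 3 stimulated times were also compared directly. The stimulated arrays of all genotypes entered the same fit, and the times stood in for replicates. The spread tested therefore includes differences in time course between all genotypes on either slide, not only between the cells compared. Such differences make a call less likely. Between Tlr7-/- and WT cells, on 1 slide, none of 35 genes was called by limma and none had an unadjusted p under 0.05, where 0.00435% of all genes were called, all lower, and 1.83% had such a p. Between the double knockout and Tlr9-/- cells, on the other slide, none of 35 was called, where 0.0435% of all genes were called (0.0087% higher and 0.0348% lower). An unadjusted p under 0.05 was found for 5 of 35, where 5.9% of all genes had one. The largest difference was in Srm, at -0.66 ± 0.21 log2 units (adjusted p = 0.819, limma). Between Tlr9-/- and WT cells, on different slides, none was called, where 0.0566% of all genes were called (0.0261% higher and 0.0305% lower). An unadjusted p under 0.05 was found for 3 of 35, where 9.27% of all genes had one. Median differences of the 35 were -0.01 for Tlr7-/- less WT, -0.16 for the double knockout less Tlr9-/- and -0.06 for Tlr9-/- less WT. A difference that misses the threshold here does not show equal levels.

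Other genes of these pathways (63 listed, 60 on the array and 57 tested) were mixed in direction. At 6 h 27 were higher and 9 lower, at 24 h 35 higher and 8 lower, and at 42 h 30 higher and 6 lower. Their median changes were 0.45, 0.84 and 0.49. Of all genes, 22.9%, 22.7% and 17.3% were higher at these times and 23.9%, 26% and 20.7% lower. Rrm2, the S-phase subunit of ribonucleotide reductase, had the largest rise at 24 h (4.07 ± 0.56, adjusted p = 0.000248, limma). Its log2 ratios at 0, 6, 24 and 42 h were -0.02, -1.14, 1.51 and 3.6 in the double knockout and -0.06, -1.05, 4.57 and 2.29 in Tlr9-/- cells. They were 0.24, -0.98, 3.67 and 4.8 in Tlr7-/- cells and -0.23, -1.24, 3.91 and 4.79 in WT cells, so it was lower at 6 h than at 0 h in every genotype and high later. Shmt1, a serine hydroxymethyltransferase that loads folate with carbon units, rose by 3.32 at 24 h (its probe was above background on 2 of 3 arrays at 0 h), and Psat1, of serine synthesis, by 3.15. Samhd1, which breaks down deoxynucleoside triphosphates, had the largest fall, -2.84 ± 0.21 at 24 h (adjusted p = 5.86e-06, limma). It stood at -0.16, -2.88, -1.53 and -1.69 in the double knockout, 0.12, -3.52, -2.31 and -2.02 in Tlr9-/- cells, 0.2, -4.31, -2.91 and -2.07 in Tlr7-/- cells and 0.02, -4.67, -2.95 and -1.97 in WT cells. All 12 stimulated arrays were below all 0 h arrays. Tk2, the mitochondrial thymidine kinase, changed by -1.95 and Ctps2, a CTP synthase, by -1.33 at 24 h, both called.

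At 0 h the 35 genes lay close to the pool, which was itself made of unstimulated RNA of these genotypes. All probes together did too. The SD of their log2 ratio at 0 h was 0.166 in the double knockout, 0.28 in Tlr9-/- cells, 0.153 in Tlr7-/- cells and 0.184 in WT cells. The log2 ratios of the 35 genes ranged between -0.24 and 0.45 in the double knockout, -0.31 and 0.29 in Tlr7-/- cells and -0.39 and 0.43 in WT cells. In Tlr9-/- cells they ranged between -1.08 and 1.18, with 32 of 34 within 0.5 of the pool.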

How the data were processed

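RNA of AM14 splenic B cells of 4 genotypes at 4 times was read on 16 arrays with 2 colours. Trizol and then RNeasy were used to purify RNA, which was amplified before hybridisation, per the labels' protocols. Scanning output is from Agilent Feature Extraction 10.1.1.1, and the design has mm9 coordinates, per the file headers. It holds 62976 spots, of which 3671 are controls. The deposited intensity values are mean foreground and median background per colour, before correction. The processed signals, also intensity, were corrected and dye-normalized per the file headers. The log10 ratio of Cy5 over Cy3 is per the file headers, and the authors' series table is on the log10 scale too, within 5e-04 of the ratio of processed signals. The other deposited columns are flags of 0 or 1.

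From the intensities, background was corrected with normexp (offset 50) and colours were normalized by loess within arrays (limma 3.58.1 in R 4.3.3). The resulting log2 ratios were computed here from the deposited intensities. Spots flagged as outliers were set to missing. The brightest probe stood for a gene. Probes entered a test where Cy5 or Cy3 was well above background on 3 or more of its arrays. Models had genotype and time as terms (6 residual degrees of freedom, 3 for the comparison of Tlr9-/- cells with Tlr7-/- and WT cells), were 2-sided and were adjusted over all genes tested. In the tests of response differences, the arrays of the genotype set against the rest add nothing to the residual spread and were assumed to vary like the others. The scripts were tested on simulated data. The number of arrays limits the precision.

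Members, lists and tests were chosen with earlier results of these data known. Values are given array by array for, in each role group, the 2 members with the largest called change, members called lower at 2 or more times, and the 3 with the largest called response difference of the double knockout at 24 h. Other pathway genes were named by the 3 largest called changes each way at 24 h. Alternatives were median centring, processed signals, the authors' series table, other filters on dim probes, the mean over probes and leaving out genotypes or times. The series table was used only for changes of single genes from 0 h. Leaving out the Tlr9-/- 0 h array was added after seeing the data.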

Additional observations from a re-analysis of the deposited data

Results flagged for a closer look

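These genes had a response that differed between genotypes by a limma test of the difference itself, adjusted over all genes. At 24 h the double knockout responded less than the other 3 genotypes in Uck2 (-1.91 log2 units), Mthfd2 (-2.07) and Prps1 (-1.12).

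Against Tlr7-/- and WT cells, Tlr9-/- cells responded less in Uck1 at 6, 24 and 42 h (-1.35, -1.25 and -1.32) and more in Impdh1 (1.06, 1.02 and 1.05). In both genes the Tlr9-/- 0 h spot (1.18 for Uck1 and -1.08 for Impdh1) stood apart from the other 0 h spots, and every one of these differences is taken from it. Adsl differed at 6 h (-0.75), Gart at 24 and 42 h (-0.79 and -0.98), and Dck (-1.24), Dguok (0.67) and Paics (-0.69) at 42 h. The Gart values are those of its brightest probe, and another Gart probe responded more in Tlr9-/- cells at both times. The Dck spot of the Tlr9-/- 0 h array was not well above background, so the size of its difference is uncertain. Over the 34 testable genes, 3, 3 and 6 were called at 6, 24 and 42 h (8.82%, 8.82% and 17.6%). Of all genes, 5.89%, 5.85% and 15.8% were called in the same comparison. Slide and loss of Tlr9 cannot be told apart here.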

How the results depend on the processing

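The counts of the 35 genes called at 6, 24 and 42 h against 0 h stayed within 1.5 times under every alternative counted. The authors' series table was not among these. The 3 counts of 0 over stimulated times stayed 0. With the processed signals, 5 genes were called between 24 and 6 h, 0 between 42 and 24 h, 0 in the double knockout difference at 24 h, and 0, 0 and 2 in the Tlr9-/- differences at 6, 24 and 42 h. Under median centring the first 3 of these were 6, 28 and 1, and the Tlr9-/- differences at 6 and 24 h were 1 and 12. Leaving out a genotype gave 1 to 20 genes between 24 and 6 h, 0 to 21 between 42 and 24 h, and 0 to 1, 0 to 21 and 0 to 5 double knockout differences at 6, 24 and 42 h. Without the Tlr9-/- 0 h array, 5 double knockout differences were called at 24 h. The share of all genes called in that difference moved from 0.149% to 13.8% without the Tlr9-/- arrays. The shares of all genes called under the other alternatives are not given here. Such counts alone therefore do not describe the members. Under median centring, Oaz1 turned to 0.52, 1.02 and 0.40 at 6, 24 and 42 h, Sat1 to 0.59 at 6 h, and Uck1 to 0.25 and 0.23 at 6 and 24 h. The cause was not tested. Of the other values of named genes under alternatives, 463 kept direction and call and 38 lost the call. These include values from the authors' series table, which come from the same processed signals as another alternative. Leaving out WT or Tlr7-/- cells leaves the Tlr9-/- response differences no residual degrees of freedom. Median centring moved the median of all genes in the Tlr9-/- difference at 24 h to -0.37. No paired analysis was possible because the labels give no replicate numbers, and genotype is already a term in every comparison between times. Dim probes (Cad, Dck) limit what can be read at 0 or 6 h.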
